A study of Mus musculus with 2 samples.

Results

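Antisense genes are long non-coding RNA genes that lie on the strand opposite another gene, and the genes described here are those that GENCODE M21 types as antisense and that were well measured in nuclear RNA of mouse macrophages. They were chosen by level, measured as TPM, a level per transcript length that is scaled to the same total in each library. The rule kept autosomal antisense genes with a TPM of 2 or more in both libraries and left out a set of named host and regulatory RNAs, of which Kcnq1ot1 and Tug1 had reached that level. It took 189 of 2913 autosomal antisense genes (6.49%), while 1501 of the 2913 had 0 counts in both libraries. For comparison, 7132 of 20807 autosomal protein-coding genes (34.3%) passed the same threshold. Since TPM chose the genes, their levels are given as a description with no test. The genes they overlap on the other strand are called partners. The main partner is the protein-coding one with the longest overlap of gene spans.

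Both libraries belonged to 1 group: macrophages grown from bone marrow of C57BL/6J mice and given Lipid A, the TLR4-binding part of lipopolysaccharide, at 100 ng/ml for 40 min. RNA of the nucleoplasmic fraction was depleted of ribosomal RNA and sequenced as total RNA. Sex and age were not collected. The libraries are biological replicates 1 and 2 with the same donor identifier, made from 1 µg and 500 ng of RNA. An effect of the RNA amount cannot be told apart from the replicate, and the SD over the libraries may hold less than the spread between animals. They held 19498126 expected counts on annotated genes in replicate 1 and 18398454 in replicate 2. All 10 macrophage markers were detected (13.5 to 1542 mean TPM), while 2 of 31 markers of 8 other cell types reached 1 TPM in both libraries (Cd4 with a mean of 19.2 and Kdr with 2.95) and 12 were at 0. The neutrophil marker S100a9 averaged 1.11 TPM without reaching 1 TPM in both. Untreated cells and other times were not analysed here, so no value below says that a gene responded to Lipid A.

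Antisense transcription is common at mammalian genes. Some antisense RNAs start near the partner's promoter and run away from it, some cover the partner's end, and others lie within its introns. A few are known to act on the partner in cis, such as Airn, which silences Igf2r on the paternal chromosome in mouse. A human antisense RNA at ZEB2 is known to keep an intron in the 5′ UTR of the ZEB2 mRNA. Such RNAs are usually scarcer than the mRNA opposite them and are often held in the nucleus. At 40 min of TLR4 signalling, macrophages are known to transcribe early genes for cytokines and NF-kB regulators, several of which have annotated antisense genes.

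The overlap of an antisense gene with its partner can be read directly from both transcripts, which are reverse complements of each other where their exons cross. Stretches are shown for 3 partners with known roles in macrophages: Il1b, the cytokine IL-1β, Zeb2, a zinc-finger transcription factor of macrophage identity, and Kdm6b, a histone H3K27 demethylase (JMJD3). Each line is written 5′ to 3′ from GENCODE M21 transcripts on mm10. Capitals mark the 8 bases at the start of the antisense stretch and the 8 bases they pair with at the end of the partner stretch.
Il1bos: AGTCTAGAagcagattctgggccag
Il1b: ctggcccagaatctgctTCTAGACT
Zeb2os: GGGAGAGAagagagaccctgaaacacgcgc
Zeb2: gcgcgtgtttcagggtctctctTCTCTCCC
Kdm6bos: CTGGCGTTcggctgccagggaccttcatgt
Kdm6b: acatgaaggtccctggcagccgAACGCCAG
The Il1bos stretch is its whole first exon of 25 bases (chr2:129369897-129369921, plus strand), and those are all the exon bases it shares with Il1b. On the Il1b side they occur only in the transcript ENSMUST00000155994.1, whose exon at chr2:129369729-129370345 crosses them. The Zeb2os lines are 30 of 181 contiguous shared bases (chr2:45113099-45113128, plus strand for Zeb2os). The Kdm6bos lines are 30 of 149 (chr11:69401515-69401544, plus strand for Kdm6bos).

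Start regions are shown for 2 antisense genes that begin inside their partner, Il1bos and Airn (RefSeq windows on GRCm38.p6, 250 bases before to 50 after the RefSeq start, both on the plus strand). In the Il1bos window (chr2:129369652-129369951) capitals mark its first exon. In the Airn window (chr17:12741061-12741360) they mark 1 GC box (GGGCGG) and 1 TATA box (TATAAA, read here on the reverse strand).
Il1bos start: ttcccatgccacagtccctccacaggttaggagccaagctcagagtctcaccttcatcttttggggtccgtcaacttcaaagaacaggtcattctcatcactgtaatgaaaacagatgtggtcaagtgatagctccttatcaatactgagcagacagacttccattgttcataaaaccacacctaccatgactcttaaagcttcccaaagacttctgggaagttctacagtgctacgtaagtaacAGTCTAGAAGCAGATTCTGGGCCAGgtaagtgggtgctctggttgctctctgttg
Airn start: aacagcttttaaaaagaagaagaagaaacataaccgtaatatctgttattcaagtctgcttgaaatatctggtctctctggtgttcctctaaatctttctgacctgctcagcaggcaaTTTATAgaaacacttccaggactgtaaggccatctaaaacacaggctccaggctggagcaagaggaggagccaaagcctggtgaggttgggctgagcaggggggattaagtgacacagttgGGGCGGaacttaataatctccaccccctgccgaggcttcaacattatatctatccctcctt
The first exon of Il1bos is followed by gtaagt, the letters of a splice donor. An exon of the Il1b transcript ENSMUST00000028881.13 (49 bases, chr2:129369703-129369751) lies in the same window on the other strand, with 145 bases between it and the start of Il1bos. The windows held 2 and 3 CpG and had a GC content of 46% and 45.7% for Il1bos and Airn. Of the 189 antisense genes, 58 matched a RefSeq window by symbol and 33 of those windows started within 100 bases of the GENCODE start. Searched on both strands, GGGCGG was in 39.4% of these 33 windows and 35.7% of all 32851 windows, TATAAA in 15.2% and 13.6%, the AP-1 letters TGANTCA in 6.1% and 7.8%, and the ETS core CCGGAAG in 6.1% and 8.9%. The NF-kB consensus was in 15.2% of the 33 and 8.5% of all. The median number of CpG was 7.0 in both sets.

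How far the measurement separates the strands was judged from the counts. The strand setting of the quantifier is not given in the sources used here. A read that lies in exons of 2 genes is divided between them, which leaves fractional counts. Among autosomal antisense genes with a summed count of 40 or more and no exon shared on their own strand, counts were whole (within 0.005 in both libraries) in 73 of 266 genes whose exons overlap exons of the other strand (27.4%), against 135 of 139 with no such overlap (97.1%). Within the 189 the counts were whole in 29 of 105 (27.6%) and 74 of 77 (96.1%). Fractional counts thus went with exon overlap across strands, the pattern that reads shared between strands would leave, though not in every gene. RNA from an antisense gene therefore cannot be told apart here from RNA of its partner in shared exons. The check does not cover introns. As the strand setting is not given, unspliced partner RNA in introns cannot be told apart from antisense RNA either. This check was chosen after the data were seen. All levels below are those of genes annotated as antisense, and the strand of the RNA behind them was not verified.

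The antisense genes sat at low to moderate levels. The median of their mean levels was 5.65 TPM, and these mean levels ranged from 2.10 to 167 TPM. The median by library was 6.89 TPM in replicate 1 and 4.30 TPM in replicate 2 (SD of 1.83, n = 2 libraries). Of the 189, 102 averaged 5 TPM or more, 53 reached 10 TPM and 5 reached 50 TPM. The median antisense gene rested on 165 and 144 expected counts, and the deposited credibility interval spanned a median of 33.0% of the TPM. A mean count under 50 was found for 34 genes, the lowest being 11.5. The 189 genes took 0.343% ± 0.0205 of annotated counts (69754 and 60495), which was 63.5% ± 0.214 of the counts on all antisense genes, X and Y included. At the threshold, 1700110K17Rik (2.37 and 2.00 TPM in replicates 1 and 2) and Atxn7l1os1 (5.25 and 2.00 TPM) lay just inside. Gm36266 (2.83 and 1.97 TPM) and Gm17133 (3.06 and 1.97 TPM) lay just outside.

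By alignment, the highest antisense gene, Gm40578, stood well above the others, and its partner was higher still. Gm40578 (chr12:111450405-111500840, minus strand) had 170.3 and 164 TPM in replicates 1 and 2, against 1557 and 1129 TPM for Tnfaip2, a TNF-induced gene that it meets tail to tail. AC119228.1 (chr19:29373417-29384471, minus strand) had 84.1 and 43.2 TPM, against 167 and 132 TPM for Cd274, which encodes the checkpoint ligand PD-L1. Both lay below their partner in each library, AC119228.1 by less. Of the exon bases of Gm40578, 29.4% lie in exons of Tnfaip2 and 32.9% in its introns. AC119228.1 lies inside Cd274, with 10.8% of its exon bases in exons and 89.2% in introns. The counts of both antisense genes were fractional. By FASTQ-derived values Gm40578 had 94.1 and 96.9 TPM. Zeb2os (chr2:45110707-45114087, plus strand) had 63.6 and 55.0 TPM inside Zeb2, which had 771 and 476 TPM. Only 32.8% of the exon bases of Zeb2os lie in exons of Zeb2, and the others lie in its introns.

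Several more of the highest genes lay within or across a partner and below it in both libraries. Gm37787 had 52.6 and 31.7 TPM, against 235 and 171 TPM for Slamf7, a receptor of the SLAM family. Gm28913 had 51.0 and 28.8 TPM, against 261 and 180.4 TPM for Ikbke, the kinase IKKε. A neighbouring antisense gene in Ikbke, Gm28914, ends 2777 bases upstream of Gm28913 on the same strand and had 14.2 and 9.19 TPM. Gm20234 had 54.4 and 25.4 TPM, against 355 and 248 TPM for Slfn2, a Schlafen family gene, and Gm10634 had 48.1 and 36.9 TPM, against 196 and 126 TPM for Bcl2a1d, an anti-apoptotic gene of the BCL2 family. Gm10634 spans the whole of Bcl2a1d and also overlaps Mthfsl, which had 149 and 82.0 TPM. In these pairs, by alignment, every value of the partner was above every value of the antisense gene. By FASTQ-derived values, Gm28913 had 76.7 and 106 TPM and Gm20234 had 171 and 137 TPM. Gm37787 and Gm10634 averaged lower by those values than by alignment.

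Other genes among the 12 highest stood closer to their partner or above it. 4933423P22Rik (chr2:90479236-90488425, plus strand) had 65.3 and 56.5 TPM, against 60.5 and 36.4 TPM for Ptprj, a receptor tyrosine phosphatase in whose introns all of its exons lie. Gm16712 had 43.0 and 31.5 TPM, against 39.8 and 31.9 TPM for Ebi3, a subunit of the cytokines IL-27 and IL-35. Gm26716, whose exon bases all lie in Sdc3 exons, had 42.7 and 53.8 TPM, against 53.6 and 34.6 TPM for Sdc3, a syndecan. By the FASTQ-derived tables Gm26716 had 0 and 17.1 TPM, so its place among the highest rests on the alignment-based table. For Gm16712 and Gm26716 the order of gene and partner differed between the libraries. Gm47917 had 43.4 and 31.5 TPM within introns of Man1a, a Golgi mannosidase, which had 97.0 and 58.5 TPM.

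**Figure D1:**
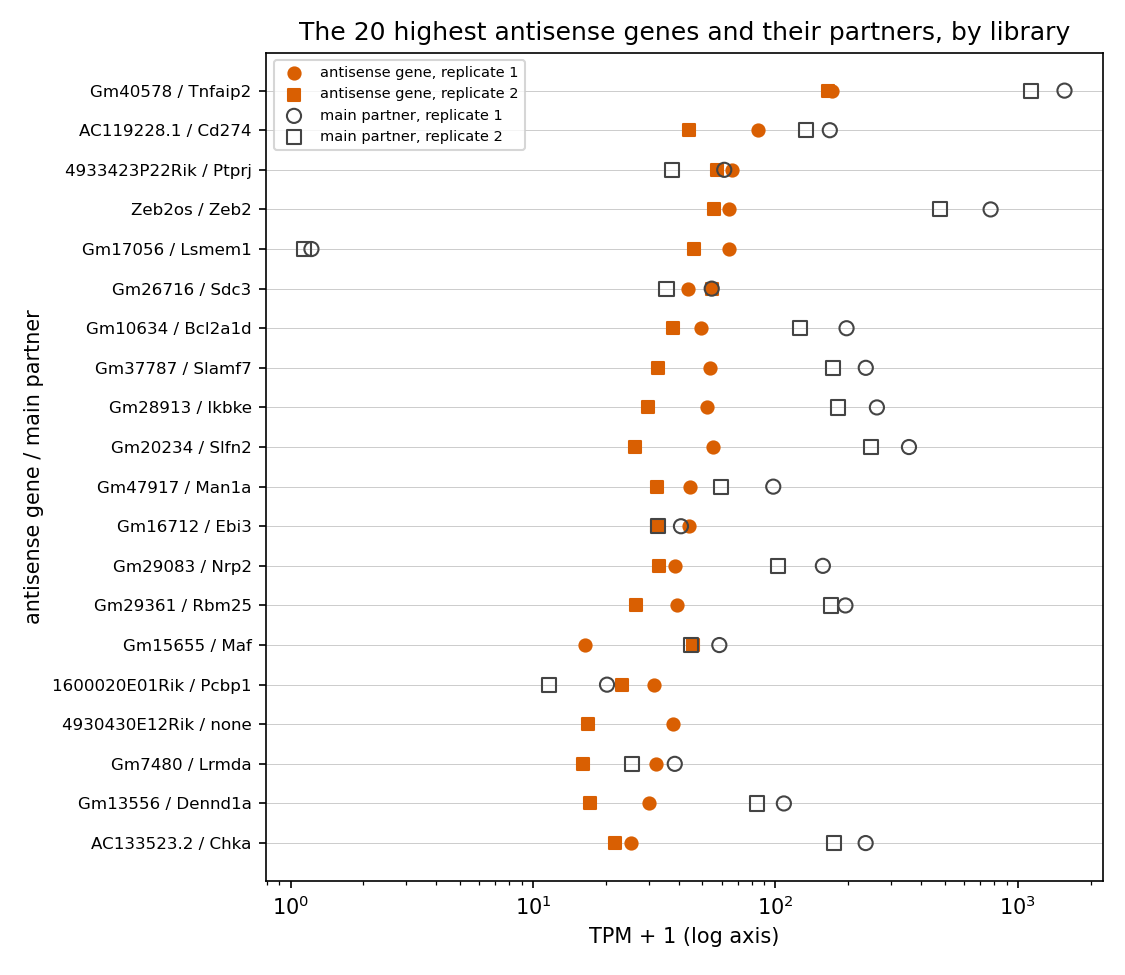
Levels of the 20 highest antisense genes (filled orange symbols) and of their main partners (open symbols) in each library, on a log axis of TPM + 1; circles are replicate 1 and squares replicate 2. Most partners sit to the right of their antisense gene, Gm17056 sits far to the right of Lsmem1, and 4930430E12Rik has no partner.

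Across all pairs the antisense gene was usually the scarcer side. Of the 189 antisense genes, 186 had a partner, 185 of them a protein-coding main partner, and there were 170 distinct main partners. The partners had a median of 31.0 TPM and ranged from 0 to 1537 TPM. In both libraries 154 antisense genes were below the main partner and 26 were above it. The median of log2((antisense TPM + 1)/(partner TPM + 1)) was -2.03 in replicate 1 and -2.11 in replicate 2. Partner levels were spread widely. The main partner had 100 TPM or more for 29 antisense genes, under 10 TPM for 38 and under 1 TPM for 15. These partner levels are not separate from the rule, since partner RNA may enter the TPM that chose the genes. Gm26947 was paired with the lincRNA Pldi alone. No gene of the other strand overlapped 4930430E12Rik (36.9 and 15.9 TPM), Gm15445 (14.4 and 17.0 TPM) or Gm16094 (11.1 and 4.24 TPM).

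Levels of antisense gene and main partner were weakly related across the 186 pairs, with Pearson's r of 0.33 and Spearman's rank correlation of 0.31 on log2(TPM + 1). By library, Spearman's rank correlation was 0.32 in replicate 1 and 0.27 in replicate 2. It was 0.23 over the 68 genes with all exon bases in introns of the other strand and 0.06 over the 31 with most exon bases outside any gene of that strand. These values describe loci measured in the same 2 libraries, where reads may be shared between strands. The choice of genes by level narrows the range of the antisense side.

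**Figure D2:**
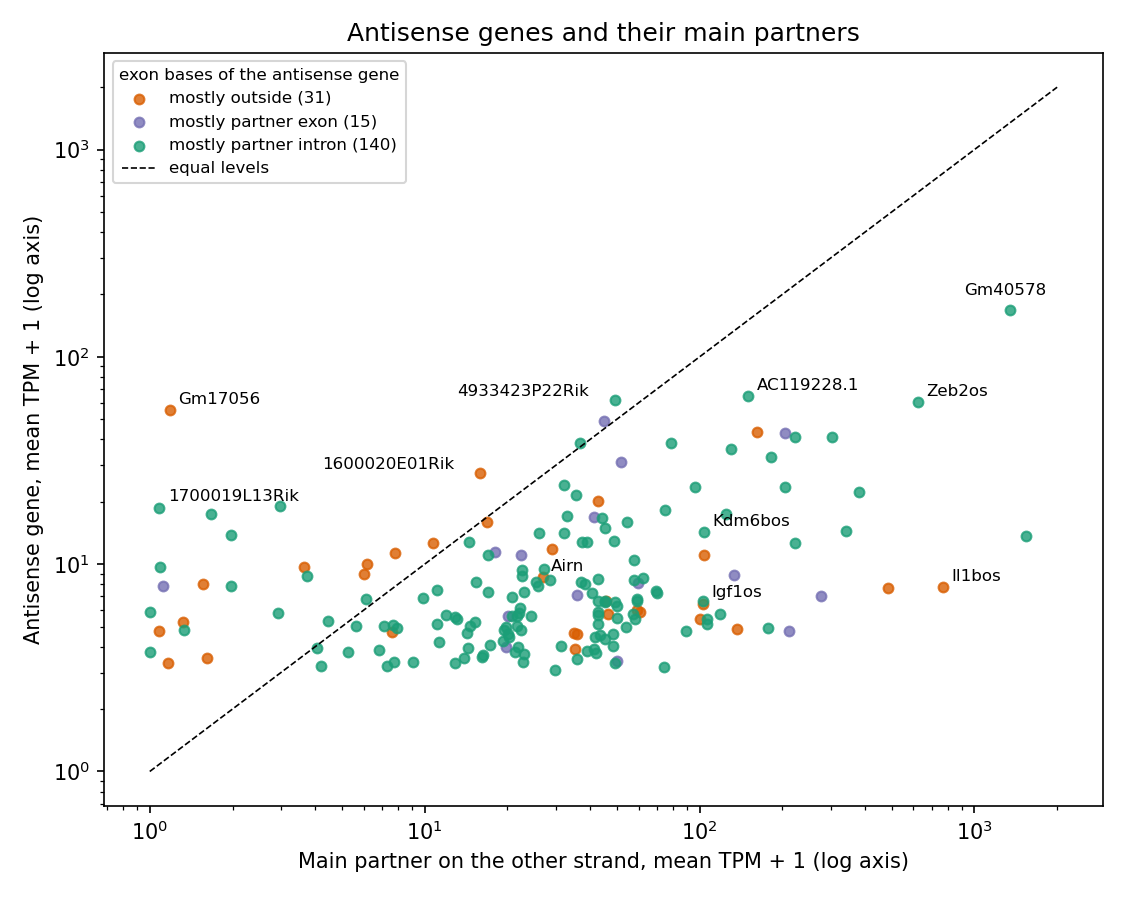
Mean TPM + 1 of each antisense gene (vertical, log axis) against that of its main partner (horizontal, log axis) for the 186 pairs, coloured by where most exon bases of the antisense gene lie; the dashed line marks equal levels. Most points lie below the line, Il1bos and Zeb2os far below it, and Gm17056 and 1700019L13Rik stand far above it at the left edge.

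The 26 antisense genes above their main partner were led by 4933423P22Rik, described above, and Gm17056. Gm17056 (chr12:40198656-40201105, plus strand) had 63.4 and 45.4 TPM, against 0.220 and 0.140 TPM for Lsmem1, which it meets head to head with starts 834 bases apart. Ifrd1, on the minus strand, ends 462 bases from Gm17056 and had a mean of 1537 TPM. Whether RNA running past the end of Ifrd1 enters the level of Gm17056 was not tested. 1600020E01Rik (chr6:86526247-86582466, plus strand) had 30.7 and 22.3 TPM, against 19.2 and 10.7 TPM for Pcbp1, an RNA-binding protein gene whose start is 74 bases away. Its exon bases lie to 98.3% outside any gene of the other strand.

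Other genes of the 26 lay in introns of genes at low levels. Gm30329 had 18.7 and 17.4 TPM, against 2.47 and 1.5 TPM for 1700011L22Rik. Gm26740 had 21.8 and 11.1 TPM, against 0.680 and 0.670 TPM for Raet1e, a ligand gene of the receptor NKG2D, and the other genes it overlaps stayed under 5 TPM in both libraries. Gm16006 and 9330154K18Rik both lie in Zhx2, a zinc-finger and homeobox repressor gene at 1.19 and 0.760 TPM. Their levels were 16.8 and 8.93 TPM for Gm16006 and 7.35 and 6.39 TPM for 9330154K18Rik.

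Among the 26 were also genes that lay mostly outside their partner. Gt(ROSA)26Sor, the non-coding gene of the Rosa26 locus used for transgene insertion, had 13.5 and 7.04 TPM, against 7.64 and 5.99 TPM for Thumpd3. Gm26982 had 15.8 and 7.47 TPM, against 13.7 and 5.78 TPM for Ghrl, the ghrelin gene, and shares 3 exon bases with it. Tatdn2, on the strand of Gm26982, ends 3902 bases upstream and had a mean of 35.2 TPM. Whether its RNA enters the level of Gm26982 was not tested. Gm44672 had 12.2 and 5.92 TPM, against 6.69 and 3.67 TPM for Sec23ip, a gene of vesicle export from the endoplasmic reticulum. In all 3 pairs the antisense gene was above the partner within each library, and its own level was higher in replicate 1.

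A low main partner did not always mean a quiet other strand. For 6 of the 26 another overlapping gene of that strand was higher than the antisense gene, which leaves 20 above every partner. 1700019L13Rik (chr9:119983146-119988092, plus strand) had 28.3 and 7.16 TPM, against 0.090 and 0.080 TPM for its main partner Cx3cr1, the fractalkine receptor. It also shares 224 exon bases with Csrnp1, a nuclear protein gene, at 154 and 95.6 TPM. Gm47079 had 8.43 and 5.23 TPM, against 0.240 and 0 TPM for Icam4 and 593 and 388 TPM for Icam1, the leukocyte adhesion ligand. Brip1os had 9.13 and 6.85 TPM, against 5.37 and 4.66 TPM for Ints2, an Integrator subunit, and 32.0 and 31.3 TPM for Med13, a Mediator subunit. The other three, named after their values were seen, were A930007I19Rik, Etohd2 and Gm26642, opposite Ric1 (46.8 mean TPM), Tut7 (87.5) and Rnpep (45.3).

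By arrangement, 128 of the 189 antisense genes lay inside the span of the main partner, 27 met it tail to tail, 26 head to head and 5 spanned it. The genes inside a partner had a median of 5.21 TPM opposite partners of 31.5 TPM, and 10 of 128 were above the partner in both libraries. Head to head genes had a median of 5.90 TPM opposite 35.5 TPM, and 7 of 26 were above. Tail to tail genes had a median of 6.11 TPM opposite 19.1 TPM, and 6 of 27 were above. Of the 5 that span a partner, 3 were above it. Gm10634 and Brip1os, both described above, were the highest of these 5. After Gm17056 and 1600020E01Rik, 0610038B21Rik was among the higher head to head genes, with 21.5 and 17.1 TPM, against 46.1 and 37.5 TPM for Arhgap10. The starts of 14 antisense genes lay within 1 kb of the start of the main partner.

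By position of their exons, 140 antisense genes lay mostly in introns of the other strand, 15 mostly in its exons and 34 had 50% or more of their exon bases outside. The median was 5.01 TPM for the intronic genes, 7.08 TPM for the exonic ones and 6.89 TPM for those mostly outside. By library, in replicates 1 and 2, these medians were 6.09 and 4.23 TPM for the intronic genes, 8.43 and 6.15 TPM for the exonic ones and 8.83 and 4.82 TPM for those mostly outside, so the intronic genes were lowest in each library. All exon bases lay in introns of the other strand for 68 genes and in its exons for 4. Mostly in introns or exons means here that the larger part of the overlapping bases lay there. Of the 31 mostly outside that had a partner, 12 were above it in both libraries, against 13 of 140 mostly intronic genes and 1 of 15 mostly exonic genes.

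Whether an antisense gene reached the threshold went with the level of the gene opposite it. Among all autosomal antisense genes wholly in introns of the other strand, 3 of 446 (0.673%) passed where the highest partner was under 1 TPM. With partners of 1 to 10 TPM 10 of 190 passed (5.26%), with 10 to 50 TPM 43 of 133 (32.3%) and with 50 TPM or more 12 of 33 (36.4%). Genes with 50% or more of their exon bases outside had 5 of 348 (1.44%), 5 of 140 (3.57%), 13 of 92 (14.1%) and 9 of 26 (34.6%) over the same steps. Sense intronic genes, which GENCODE places in introns on the same strand as their host, had 0 of 113 (0%), 5 of 97 (5.16%), 30 of 94 (31.9%) and 7 of 17 (41.2%) by the level of the host. Across 802 wholly intronic antisense genes, Spearman's rank correlation between gene and highest partner was 0.73 on log2(TPM + 1). The shares for intronic genes of either strand were close at each step up to 50 TPM. Since the strand of the RNA was not verified, RNA of an intron and RNA of an antisense gene within it cannot be told apart here. These steps were chosen after the data were seen.

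**Figure D3:**
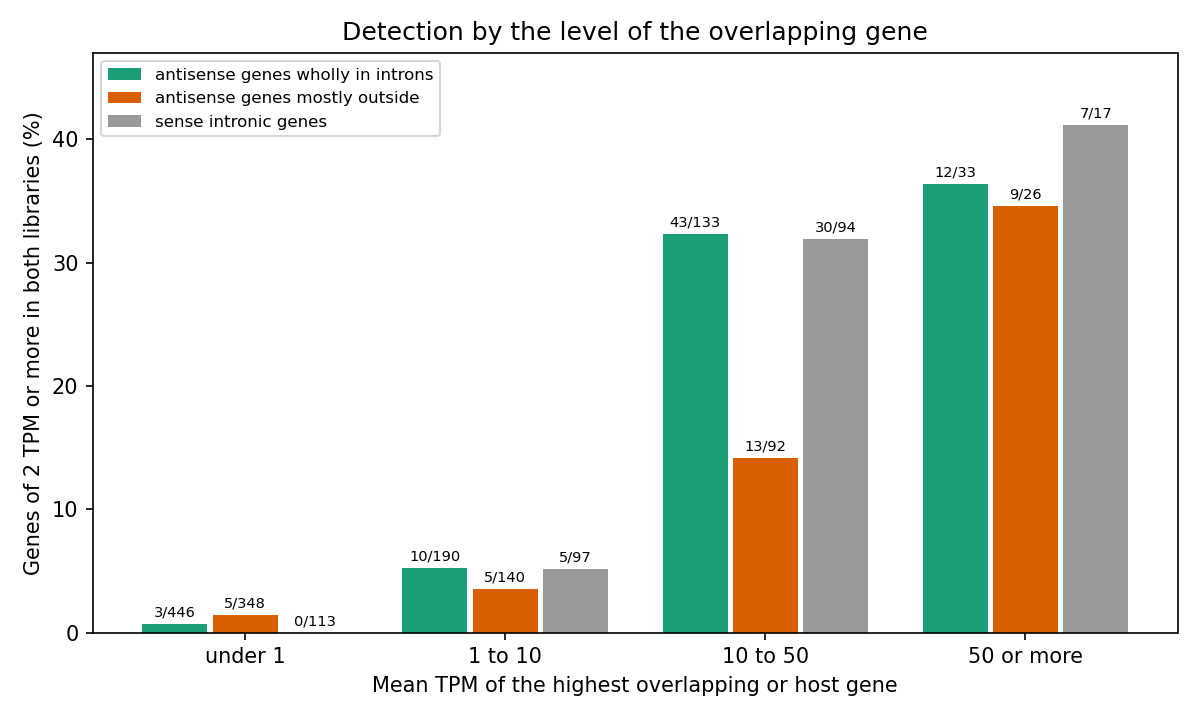
Percent of genes at 2 TPM or more in both libraries (vertical) by the mean TPM of the highest gene on the other strand, or of the host for sense intronic genes (horizontal); numbers above the bars give genes passing of genes in the group. Green and orange bars are antisense genes wholly in introns and mostly outside, grey bars are sense intronic genes, and all 3 sets climb with the level of the overlapping gene.

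Among the 8 highest antisense genes with an os (opposite strand) symbol, Brip1os alone was above its main partner, and the other seven were below theirs in both libraries. Il1bos (chr2:129369897-129375748, plus strand) had 7.17 and 6.28 TPM from 248 and 276 counts, against 893 and 642 TPM for Il1b. It starts 1242 bases from the start of Il1b and runs out of the gene, with 99.2% of its exon bases outside. Kdm6bos (chr11:69401513-69402700, plus strand) had 17.2 and 9.29 TPM, against 114 and 91.4 TPM for Kdm6b. Rab10os had 17.5 and 12.3 TPM, against 17.7 and 14.0 TPM for Rab10, a small GTPase of membrane traffic.

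Igf1os had 8.25 and 2.64 TPM, against 122 and 83.3 TPM for Igf1, the growth factor gene that macrophages express. Aknaos had 9.42 and 5.51 TPM, against 45.9 and 37.7 TPM for Akna. Zmiz1os1 had 6.54 and 3.25 TPM, against 70.7 and 48.4 TPM for Zmiz1, a transcriptional coactivator. All 3 were below their partner in both libraries and higher in replicate 1 than in replicate 2. Airn (chr17:12741311-12860136, plus strand), named although it falls outside the rule for named genes, had 10.03 and 5.24 TPM, against 34.1 and 17.7 TPM for Igf2r, the receptor it is known to silence in cis. It shares no exon base with Igf2r.

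The gene lists were covered as follows. Of 89 early response genes, 13 overlapped an annotated antisense gene (14.6%) and Il1b alone was a main partner, by Il1bos, while Icam1 is a further partner of Gm47079. Of 46 interferon response genes found, 4 had an annotated antisense gene (8.70%) and Irf2, a transcription factor of interferon signalling, was a main partner, by Gm45479 (4.45 and 2.44 TPM, against 50.6 and 30.9 TPM for Irf2). Of 59 macrophage genes, 10 had one (17.0%) and 4 were main partners: Zeb2, Maf, Cx3cr1 and Runx1. Of 76 chromatin and RNA-processing genes, 12 had one (15.8%) and Kdm6b and Brd2 were main partners. Over all 9013 autosomal protein-coding genes of 1 TPM or more, 1258 had an annotated antisense gene (14.0%) and 156 were main partners (1.73%). The share of main partners was 1.12% in the early response list, 2.17% in the interferon list, 6.78% in the macrophage list and 2.63% in the chromatin and RNA-processing list. Unlike the share over all genes, these include listed genes under 1 TPM, such as Cx3cr1. With 1 to 4 genes a list, nothing is read from these shares.

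Values of the pairs in these lists not given above were as follows. Gm26626 had 6.23 and 3.33 TPM within Runx1, a transcription factor of blood cells, which had 139 and 97.0 TPM. CR974462.3, wholly in exons of the bromodomain gene Brd2, had 4.34 and 3.18 TPM, against 225 and 197 TPM for Brd2, and rested on 18.7 and 16.0 fractional counts. Genes wholly inside exons of a partner of 50 TPM or more numbered 4 among all autosomal antisense genes. The other three were Gm15655 in Maf (15.3 and 44.6 TPM), Gm47123 in Ctsl (1.41 and 0.210 TPM) and Gm17134 in Ptbp1 (0 TPM in both). Levels in this position were thus a small part of the partner level for CR974462.3, Gm47123 and Gm17134. For Gm15655 the level was close to that of Maf in replicate 2. By the FASTQ-derived tables Gm15655 had only 1.99 and 21.1 TPM in replicates 1 and 2.

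Some partners carried several of the 189 antisense genes, and those of 1 partner share its locus. There were 14 such partners. Arhgap10 carried 4, of which 0610038B21Rik was the highest and Gm45406, Gm45285 and 4933421D24Rik lay inside the gene at means of 5.67, 4.70 and 4.17 TPM. Ikbke, Zhx2, Lrmda, Cdk6, App, Ano6, Atxn7l1, Etv6, Mast4, Pi4kb, Pitpnc1, Uvrag and Arhgap22 carried 2 each. In Lrmda, Gm7480 had 31.1 and 15.1 TPM and 4930405A10Rik 17.2 and 9.13 TPM, against a mean of 31.0 TPM for Lrmda. Close neighbours can also share reads on the same strand. For 18 antisense genes a same-strand gene ended within 5 kb upstream, and 7 shared exon bases with a gene of their own strand, such as Zeb2os with small misc_RNA models.

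The libraries agreed in rank, with Spearman's rank correlation of 0.85 over the 189 antisense genes, but TPM was higher in replicate 1 for 170 of them. The TPM scale was shifted in general, with a median log2 ratio of TPM + 1, replicate 2 over replicate 1, of -0.41 over 10765 genes of 1 TPM or more. With counts scaled by TMM and a prior count of 2, the median log2 ratio of replicate 2 over replicate 1 was -0.12 for the antisense genes, against 0.03 for 162 measured main partners and -0.004 for all 14515 genes. The 403 other autosomal antisense genes with enough counts had a median of -0.27. That value depends on the rule, since genes that reached 2 TPM in replicate 1 alone fall among these 403. It is therefore not a result about the 189. Past 2-fold were 4 antisense genes higher in replicate 2, where the background over all genes was 1.75%, and 9 lower, where it was 3.21%. Together that is 6.88% of the 189, against 4.96% of all genes. The ratio of gene and main partner had a Spearman rank correlation of 0.17 over 178 pairs.

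The genes with the largest ratios included both exonic and intronic cases. Gm7008 had 21.2 and 4.01 TPM from 530 and 131 counts, inside Ifrd1, which had 1721 and 1354 TPM, and its log2 ratio was -1.90. 1700019L13Rik had a log2 ratio of -1.43, from 899 and 310 counts. Gm15655 had 77.4 and 269 counts and a log2 ratio of 1.87, while its partner Maf, a transcription factor of macrophages, had 57.7 and 44.1 TPM. Gm37401, with 93.4% of its exon bases in exons of the GTPase gene Rhoa, had 27.8 and 78.9 counts and a log2 ratio of 1.53, while Rhoa had 42.0 and 38.7 TPM. Gm15655 and Gm37401 are exonic, with fractional counts, and the counts of 1700019L13Rik were whole. Gm17160, with the lowest ratio of -2.13, rested on 21 and 3 counts.

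**Figure D4:**
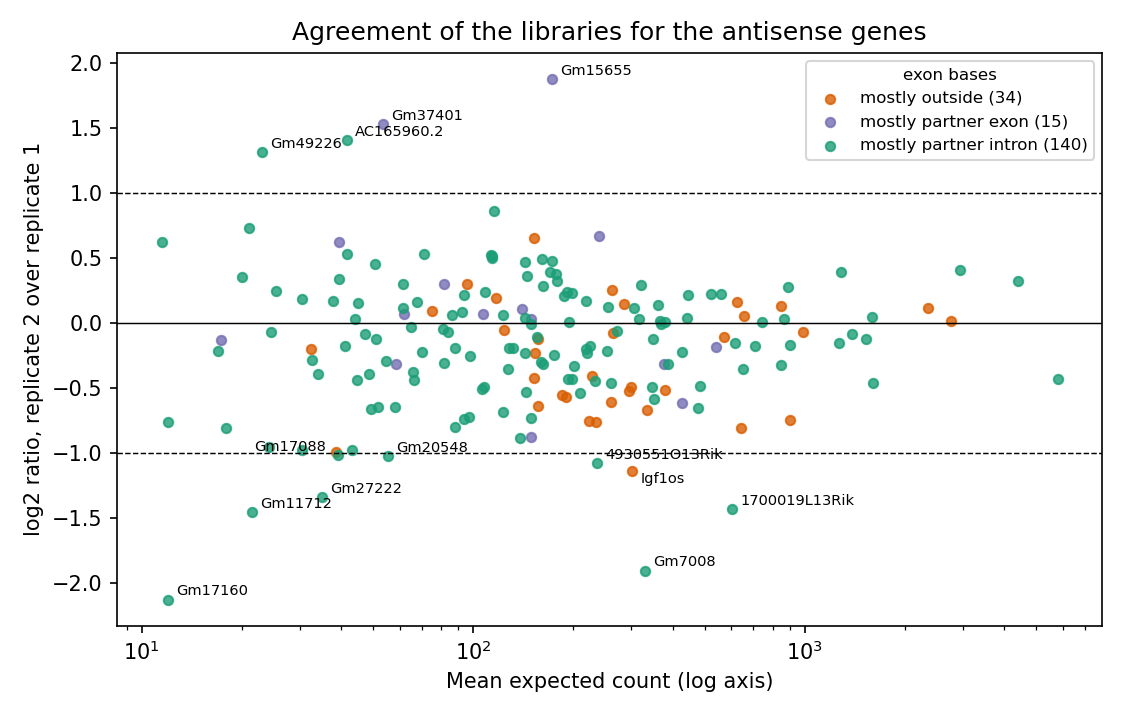
Log2 ratio of replicate 2 over replicate 1 (vertical) against the mean expected count (horizontal, log axis) for the 189 antisense genes, coloured by where most exon bases lie; dashed lines mark 2-fold. The 13 named genes lie past 2-fold, and the 2 highest points are exonic.

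Of the other 2724 autosomal antisense genes, 1501 had 0 counts in both libraries. The 189 genes differed from these 2724 in several annotated features that the rule did not use. Their longest transcript had a median of 1406 nt, against 822.5 nt for the others. A single exon was annotated for 10.6% of them, against 6.13%, and a single transcript for 65.1%, against 76.4%. All exon bases lay in introns of the other strand for 36.0%, against 26.9%. Exon overlap with the other strand was found for 58.2%, against 58.8%, and median GC content was 47.6%, against 48.9%. A poly(A) signal (AATAAA or ATTAAA) stood in the last 50 bases of the longest transcript for 49.2%, against 44.8%. The largest contrast was in the level of the partner, over 186 of the 189 and 2548 of the others that had a partner. The highest gene of the other strand had a median of 34.6 TPM for the 186, against 0.583 TPM for the 2548. It was under 1 TPM for 4.30%, against 54.1%. Neither this contrast nor that in intronic position is separate from the rule, since partner RNA may enter the TPM that chose the genes.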

How the data were processed

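The authors deposited, for each of 2 libraries, a gene table with expected counts, TPM and credibility bounds for TPM, and transcript tables made from an alignment and from the FASTQ files. Expected counts need not be whole per the file headers, and the deposited TPM is scaled to the same total over all rows of a table. The deposited FASTQ-derived tables give estimated counts and TPM. The authors' transcript tables also give each transcript's percent of its gene's TPM, which was not used further. Per the labels and the notes deposited with the files, mm10 and GENCODE M21 were used. Aligner, quantifier and strand setting: not given in the sources used here. The deposited credibility bounds are a signal per gene around the posterior mean, and cover counting and read assignment only. The 26345 rows that name no annotated gene held 0.672% and 0.196% of the expected counts and were left out.

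The members and lists were chosen with earlier results of these data known. Overlaps, arrangements and exon positions came from the GENCODE M21 annotation, read with Python 3.11.15 and pandas 2.3.3. Expected counts were rounded for the ratio between libraries (edgeR 4.0.16 in R 4.3.3, TMM scaling, prior count of 2, mean count of 10 or more), and DESeq2 1.42.0 size factors were an alternative. The ratio and the geometry were tested on simulated data. With 1 group of 2 libraries there was no contrast and no test, so SD values over 2 libraries and counts describe the spread. Where labels say only that the libraries are biological replicates, that spread may be partly technical. Named genes were the 12 highest, the 10 highest above the main partner, those opposite a listed gene, the 8 highest with an os symbol, the 4 with the largest ratio at a mean count of 50 or more, the 2 nearest each side of the threshold and the 2 highest of each arrangement. Other names were added after their values were seen.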

Additional observations from a re-analysis of the deposited data

How the results depend on the processing

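None of 50 alternatives turned a direction round, but most concern counts, levels or shares, which have no direction. Only the median ratio and the correlation with the partner have a sign that could change. Of the 50, 18 moved a value past its tolerance. This was set at 1.5 times for counts of genes and 1 SD between libraries for levels, shares and correlations. For the median ratio it was an interval about the median over genes, from -0.201 to -0.034. The number of antisense genes was 301 at a TPM of 1 or more, 81 at 5 or more and 376 by FASTQ-derived TPM. The FASTQ-derived rule kept 150 of the 189. Without replicate 1 the number was 193 and without replicate 2 it was 306, so replicate 2 mostly set which genes passed. The median level was 11.98 TPM for genes of 5 TPM or more and 4.30 to 6.89 TPM with either replicate left out. Of 107 pairs whose exons overlap, 15 had the antisense gene above its partner, and the count over all pairs was 28 to 30 with either replicate left out and 20 against the highest partner. FASTQ-derived tables kept 21 of the 26. The median ratio between replicates was -0.48 on TPM + 1, where all genes moved by -0.41. With a mean count of 100 or more, 1 gene was 2-fold higher and 4 were lower in replicate 2. A prior count of 0.5 gave 13 lower. By exon overlap, 58 genes lay inside their partner. A same-strand gene ended upstream of 4 genes within 1 kb and of 34 within 10 kb. All antisense genes took 0.540% of counts, 1.00% of FASTQ-derived counts and 0.283% of TPM, with 0.519% to 0.562% by replicate. The median of the 4 antisense genes wholly within exons of partners of 50 TPM or more was 2.29 TPM, and 1.01 TPM by FASTQ-derived values; opposite partners of 200 TPM or more there was 1 gene, at 3.76 TPM. Spearman's rank correlation between gene and partner was 0.379 by FASTQ-derived TPM and 0.272 to 0.316 by replicate. The causes were not tested. No paired analysis was possible because both libraries belong to 1 group. Counts under 50 limit 34 genes, and the deposited intervals cover counting and read assignment only.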

Other observations

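The FASTQ-derived tables gave other levels for some antisense genes. The median ratio of FASTQ-derived to alignment-based TPM was 0.743 for the 189 antisense genes, against 0.614 for protein-coding genes, and 12 antisense genes were 3-fold or more higher and 3 were 3-fold or more lower in the FASTQ-derived tables. The 3 lower ones were Gm26716, Gm44709 and CR974462.3. Zeb2os had 426 and 149 TPM by those tables, against 63.6 and 55.0 TPM by alignment. Of these, 374 and 101 TPM fell on the transcript ENSMUST00000183669.1, a model of 61 nt that had 0 TPM by alignment, and without it Zeb2os had 51.8 and 47.9 TPM. Levels by both kinds of table had a Spearman rank correlation of 0.72 over the 189 genes.

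By chromosome, the 189 antisense genes ranged from 3 on chromosome 18 and on chromosome 19 to 15 on chromosome 1. Chromosome 16 held 11 of its 92 annotated antisense genes, chromosome 2 held 8 of 237 and chromosome 4 held 5 of 167. Over all autosomes it was 189 of 2913 (6.49%).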
